A study of Equus caballus with 12 samples.

Results

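TFDP2 and EAPP are 2 of the 11425 genes in the deposited table, and both encode proteins that work with E2F transcription factors. They were taken by their Ensembl identifiers, ENSECAG00000021725 (TFDP2) and ENSECAG00000009667 (EAPP). They were selected on these same measurements, above all the high level in VIM and the low level in VMAT, so all values of the pair below are a description and were not tested. Messenger RNA was measured by 3′ RNA sequencing with unique molecular identifiers in pools of horse (Equus caballus) oocytes, with an average of 23 oocytes in a pool. All 12 pools held oocytes that were matured in vitro, stripped of cumulus cells and had extruded a polar body. FR (5 pools) were fresh matured oocytes as the control. VMAT (3 pools) were matured first and then vitrified and warmed, whereas VIM (4 pools, VGV in the sample labels) were vitrified at the immature germinal vesicle stage with the corona radiata still around them, then warmed and matured. FR and VMAT oocytes went through maturation together, so that for VIM the maturation session and the treatment cannot be told apart. The comparisons ask what vitrification at either stage does to the mRNA of the mature oocyte. The ovaries came from a slaughterhouse and the labels tie no pool to animals, so p-values measure only the spread between pools, which may be technical. In pools, fewer oocytes with an mRNA and less of it per oocyte cannot be told apart.

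E2F proteins bind the promoters of genes for DNA replication and cell division, mostly as a pair with a DP protein. TFDP2 encodes one of these DP partners (transcription factor Dp-2), which strengthens the binding of E2F to DNA. EAPP (E2F associated phosphoprotein) is a nuclear phosphoprotein that binds activating members of the E2F family and modulates transcription from their target promoters. Pocket proteins such as RB1 hold E2F in check until cyclin-dependent kinases phosphorylate them. The fully grown oocyte transcribes little, so its mRNA is largely a store laid down during growth, which is translated, kept or degraded during maturation.

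Between 1636620 and 12166950 reads per library lay on genes, with a median of 2899468. The shallowest and the deepest library were both VMAT. VMAT replicate 1 had the smallest size factor (0.321) and VMAT replicate 2 the largest (7.98), so that 3 reads, taken as the smallest countable amount, corresponded to 9.34 normalized counts in the former and 0.376 in the latter. Of the 4858 genes with a mean normalized count of at least 50, 53% had at most 10 reads in VMAT replicate 1, 10.9% in VMAT replicate 2 and 42.4% in VMAT replicate 3, against 29.7% to 45.6% in the VIM and FR libraries. A symbol was known for 9 of 14 oocyte marker genes, and their summed normalized count was 14013 to 29217 in VMAT, 13051 to 20378 in VIM and 16639 to 21333 in FR. The 29217 was VMAT replicate 1 and the 14013 VMAT replicate 2, the libraries with the smallest and largest size factors. These sums depend on that scaling and do not rank the libraries by oocyte mRNA. Of the 9 markers, 7 (among them DPPA3, BTG4 and GDF9) were above 10 reads in all libraries. FIGLA had 2, 2 and 5 reads in VIM replicates 2 to 4 and 0 in VMAT replicate 1, and ZP2 had 4 in VMAT replicate 1 and 8 in FR replicate 2, so that VMAT replicate 1 was the one library with 2 markers that low. Of 16 markers of cumulus and granulosa cells, 1 had a symbol (HAS2, at 215 to 3602 reads), so the presence of these cells was not tested. Genes were called differentially expressed (DE) where the adjusted p (Benjamini-Hochberg) did not exceed 0.05 and the log2 fold change was 1 or more in size. The limma model on log2 values (pseudocount 1) called 0 genes in each comparison. Of unadjusted p-values under 0.05 it gave 278 of 7351 in VIM vs. FR, 301 of 8305 for VMAT vs. FR, and 227 of 7627 for VIM vs. VMAT. Each was a smaller share than the 0.05 that would be reached by chance. On the recovered reads edgeR called 0, 1 and 1 genes in the same order of comparisons, and DESeq2 called 505, 354 and 295.

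In fresh oocytes the TFDP2 mRNA was present in every pool. The normalized counts in FR replicates 1 to 5 were 1072, 1771, 687, 257 and 503, from 510 to 1548 reads. In VIM replicates 1 to 4 they were 992, 1017, 1653 and 2518, from 624 to 2575 reads. In VMAT replicates 1 to 3 they were 15.6, 462 and 3.54, from 5, 3689 and 3 reads. VMAT was therefore split, with replicate 2 inside the range of FR and the other VMAT libraries far below every other pool. VIM had the highest mean, 1545 ± 717 (SD, n = 4). FR followed with 858 ± 590 (SD, n = 5), and VMAT had 160 ± 261 (SD, n = 3). In this order of levels, the neighbours VIM and FR overlapped, as did FR and VMAT. VIM and VMAT did not overlap, since the lowest VIM library (992) was above VMAT replicate 2 (462). Of the 7627 genes tested in this comparison, 1.72% had every VIM library above every VMAT library.

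EAPP was close to even over the fresh pools. Its normalized counts in FR replicates 1 to 5 were 599, 602, 716, 545 and 944, from 526 to 1319 reads. In VIM replicates 1 to 4 they were 1042, 862, 1289 and 61.6, the last from 63 reads. In VMAT replicates 1 to 3 they were 9.34, 201 and 9.43, from 3, 1602 and 8 reads. VIM replicate 4 thus stood apart from the other VIM libraries, and the VMAT libraries with little TFDP2 were also those with little EAPP. VIM had a mean of 814 ± 531 (SD, n = 4). FR had 681 ± 160 (SD, n = 5), and VMAT had the lowest, 73.1 ± 110 (SD, n = 3). VIM and FR overlapped, and FR and VMAT did not, because the lowest FR library (545) was above VMAT replicate 2. Every VMAT library below every FR library was found for 1.23% of the 8305 genes tested in VMAT vs. FR. VIM and VMAT overlapped for EAPP through VIM replicate 4, which lay below VMAT replicate 2.

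**Figure D1:**
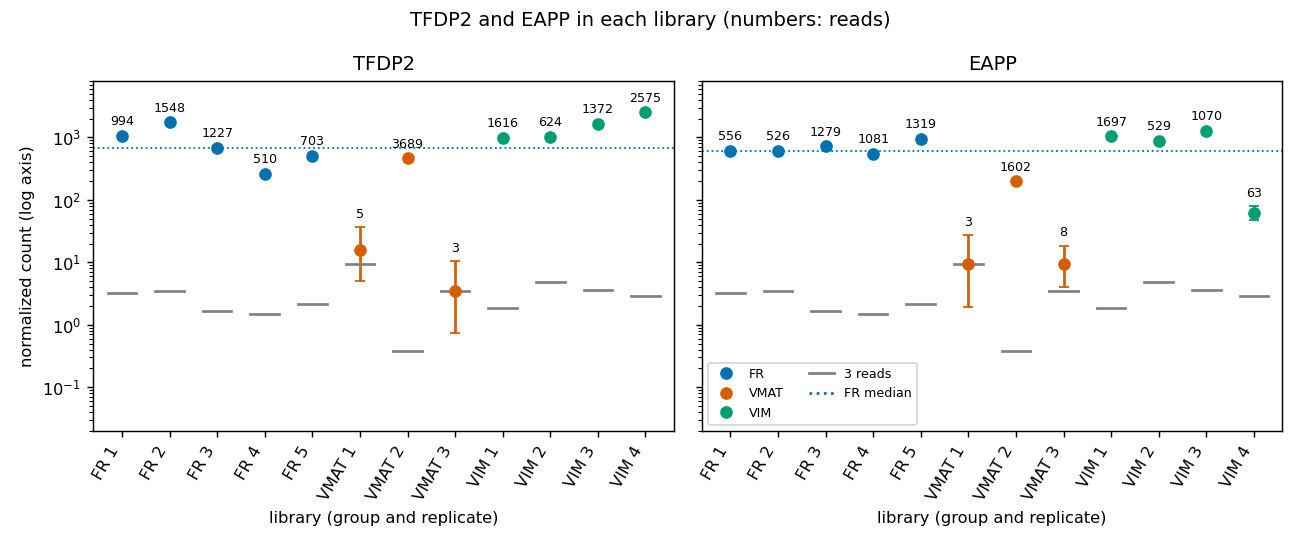
Normalized counts (log axis) of TFDP2 and EAPP in the 12 libraries, with exact Poisson 95% intervals as bars, reads as numbers, the level of 3 reads as grey lines and the FR median as a dotted line. VMAT replicates 1 and 3 lie at 3 to 8 reads for both genes, whereas VMAT replicate 2 lies at 462 for TFDP2 and 201 for EAPP.

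The reads expected in each library at the FR median were taken from its size factor, not from its total reads. At the FR median of TFDP2 (a normalized count of 687), VMAT replicate 1 would have held 221 reads and VMAT replicate 3 would have held 583, against the 5 and 3 reads found. The exact Poisson 95% interval, which covers counting error only, ended at 36.3 normalized counts in VMAT replicate 1 and at 10.3 in VMAT replicate 3, and says nothing of the spread between pools. It takes each recovered read as a separate molecule, which was not tested. On normalized counts, VMAT replicates 1 and 3 had 2.27% and 0.515% of the FR median of TFDP2, whereas VMAT replicate 2 had 67.3%. For EAPP, the FR median (602) would have given 193 reads in VMAT replicate 1 and 510 in VMAT replicate 3, against 3 and 8 found. The share of the FR median was 1.55% and 1.57% in these libraries and 33.3% in VMAT replicate 2. In VIM replicate 4, EAPP was at 10.2% of the FR median, with an interval from 47.3 to 78.8, while the same library held the highest TFDP2 value of all 12.

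The separation of the groups depended in part on the scale. Scaled to 1000000 reads on genes in each library, TFDP2 had a median of 283 and a highest value of 565 in FR, was at 294 to 868 in VIM and at 3.06, 303 and 1.23 in VMAT replicates 1 to 3. VMAT replicate 2 (303) was then above VIM replicate 2 (294), so VIM and VMAT overlapped for TFDP2 on this scale. It was also above the FR median (283), whereas on normalized counts it was below it. EAPP was at 192 to 369 in FR, 21.2 to 432 in VIM and 1.83, 132 and 3.27 in VMAT, and the VMAT libraries remained below all FR libraries.

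Fold changes come from the limma fit over all genes, with the first-named group over the other. TFDP2 had a log2 fold change of 5.46 ± 1.57 (standard error) in VIM vs. VMAT. It was -4.43 ± 1.51 for VMAT vs. FR, while VIM vs. FR gave 1.03 ± 0.73. EAPP had values of 4.22 ± 1.86, -4.58 ± 1.46 and -0.37 ± 0.93 for these comparisons. For EAPP in VIM vs. FR the sign on the log2 scale was opposite to that of the mean normalized counts. The comparisons share groups of samples and are not independent of each other. The median over all genes was -0.08 in VIM vs. VMAT, 0.01 for VMAT vs. FR and -0.12 for VIM vs. FR. On the recovered reads the sizes were smaller in the comparisons with VMAT. TFDP2 stood at 2.71 (edgeR) and 3.38 (DESeq2) in VIM vs. VMAT, and at -1.91 and -2.53 in VMAT vs. FR. EAPP stood at 2.92 and 3.58 in VIM vs. VMAT, and at -2.76 and -3.30 in VMAT vs. FR. The VMAT values rest on few libraries: without VMAT replicate 2, the log2 fold change against FR was -6.34 for TFDP2 and -6.01 for EAPP, and without VMAT replicate 3 it was -3.00 and -3.87. In VIM vs. FR, EAPP changed sign without VIM replicate 4 (0.65, standard error 0.79).

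**Figure D2:**
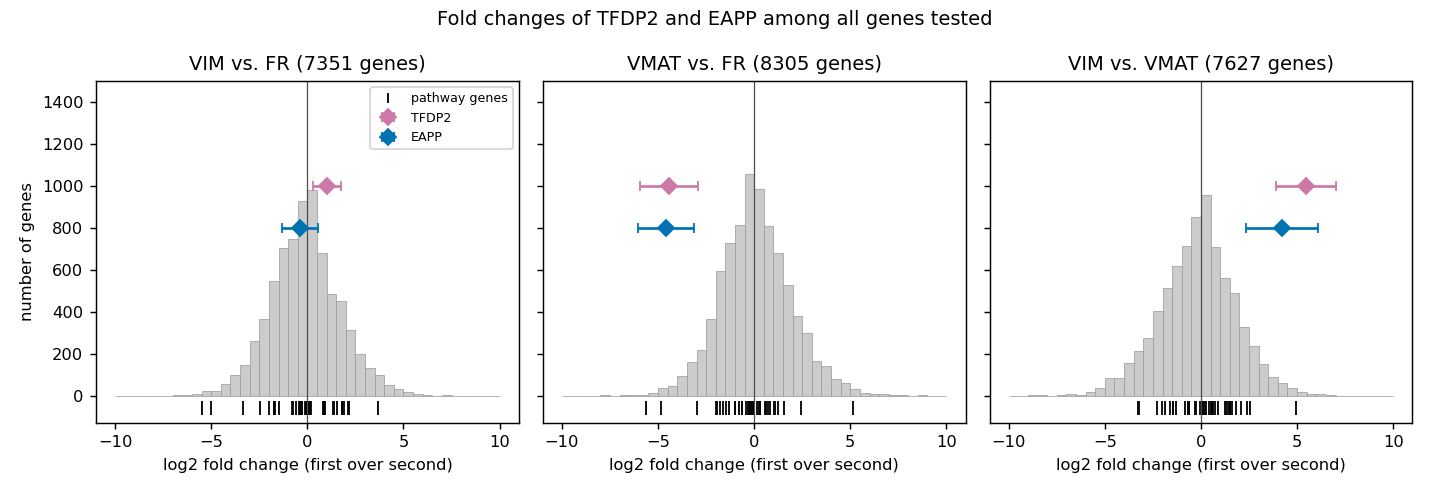
Number of genes (vertical axis) by log2 fold change (horizontal axis) in the 3 comparisons, with TFDP2 and EAPP as diamonds (bars: standard error, height of the diamonds arbitrary) and the other 38 E2F pathway genes as ticks under the histogram. Both diamonds lie at -4.43 and -4.58 in VMAT vs. FR and at 5.46 and 4.22 in VIM vs. VMAT, against 1.03 and -0.37 in VIM vs. FR.

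A fall to 10 reads or fewer in single libraries was common among these genes, but rarely took the form seen for TFDP2 and EAPP. Of the 561 other genes with a mean normalized count within 1.5 times that of TFDP2, 180 had at most 10 reads in at least 1 library and 74 in at least 2. Such low libraries were more common at the level of EAPP. Of the 802 genes with a mean within 1.5 times that of EAPP, 508 had at least 1 and 318 at least 2. At most 10 reads in both VMAT replicate 1 and VMAT replicate 3 were found for 4 of the 561 genes (TRIP11, MAP4K4, MOSPD1 and KIF3A) and for 34 of the 802. Over the 4858 genes with a mean of at least 50, 1427 had at most 10 reads in both libraries, and 20 of them had more than 10 reads in each of the other 10 libraries. TFDP2 and EAPP were among these 20. The lowest of the other 10 libraries held 510 reads of TFDP2, the most of any of the 20 genes, and 63 reads of EAPP. RYBP, a Polycomb repressor subunit, and SMAD5, which transmits bone morphogenetic protein signals, came next after TFDP2, with 351 and 178 reads in their lowest other library. This pattern was defined after the values of the pair were seen, and it holds the library with the highest share of genes at 10 reads or fewer (VMAT replicate 1), whose part in the result was not tested.

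The genes most like each of the pair were found by Pearson's r of log2 values over the 12 libraries, among 4857 genes with a mean normalized count of at least 50. These libraries share the differences in depth described above, and the values of r are a description. For TFDP2 they were RYBP (r = 0.96), GIN1 (0.93), CTSC, the lysosomal protease cathepsin C (0.88), SMAD5 (0.88) and VGLL4, a cofactor of TEAD transcription factors (0.88). For EAPP they were the kinase MAP4K4 (r = 0.92), the histone deubiquitinase USP3 (0.91), the scaffold genes DLGAP4 (0.90) and PALS2 (0.90), and again RYBP (0.90). Without VMAT replicates 1 and 3, the libraries farthest from the median of each of the pair, r with TFDP2 was 0.55 for RYBP, 0.68 for GIN1, 0.16 for CTSC, -0.16 for SMAD5 and 0.52 for VGLL4. The likeness of CTSC and SMAD5 to TFDP2 thus rested on those libraries. For EAPP, r without them was 0.86 for MAP4K4, 0.90 for USP3, 0.59 for DLGAP4, 0.85 for PALS2 and 0.48 for RYBP. MAP4K4, USP3 and PALS2 shared with EAPP the low value in VIM replicate 4, where they had 7, 3 and 7 reads. That library was kept in these values of r, and r without it was not calculated.

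EAPP stood at place 24 among the genes most like TFDP2, and TFDP2 at place 23 among those most like EAPP, with r = 0.79 and Spearman's rho = 0.43. Without VMAT replicates 1 and 3, r between them was -0.22, so that their likeness rested on those libraries. Both were selected on the same pattern, so their rank within the E2F pathway is a description and no support for a link. Among 39 other genes of the pathway, each was the gene most like the other. The next for both was DYRK1A (r = 0.54 with each), the kinase that promotes assembly of the repressive DREAM complex.

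**Figure D3:**
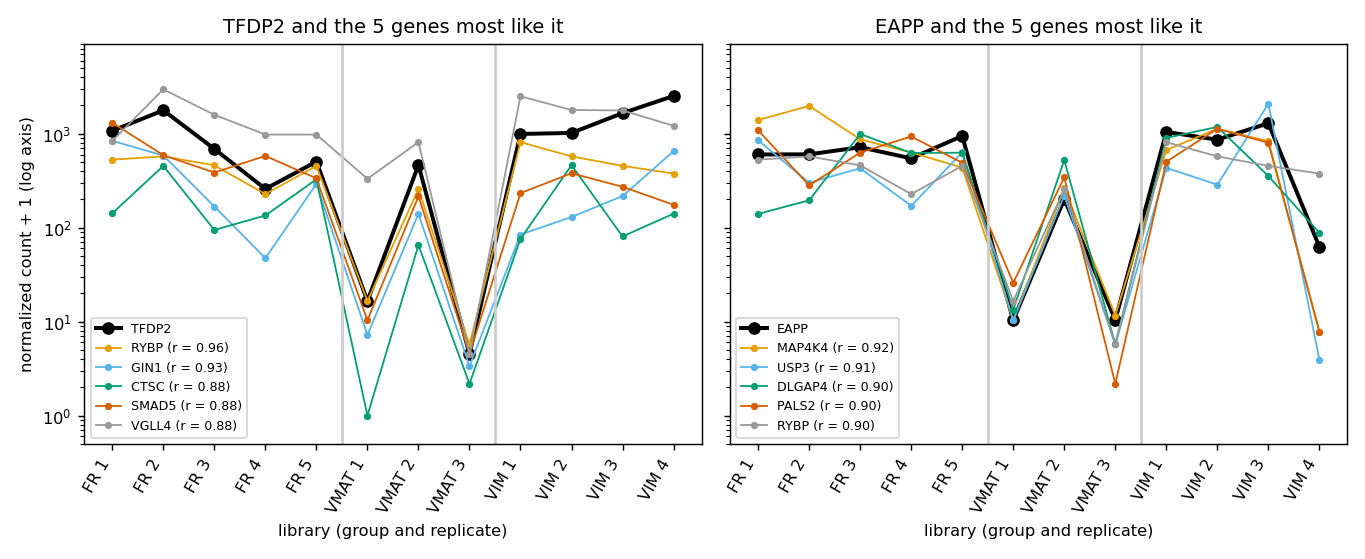
Normalized count plus 1 (log axis) of TFDP2 and EAPP (black) and of the 5 genes most like each, by library, with vertical lines between FR, VMAT and VIM. The lines join libraries only to show each gene's course: all genes drawn but VGLL4 have at most 10 reads in VMAT replicates 1 and 3, and MAP4K4, USP3 and PALS2 also in VIM replicate 4.

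The wider pathway was described with a list of 86 genes in 8 classes (E2F factors, DP partners, cofactors, pocket proteins, the MuvB core and DREAM complex, upstream cyclins and kinases, turnover, and target genes). Of these, 40 were matched by symbol in the table, TFDP2 and EAPP included, and TFDP1 and most E2F factors were not analysed here. Symbols came from tables that were held only in part and begin with the genes lowest in vitrified oocytes, and 59.6% of the genes with a symbol had a log2 fold change below 0 in VMAT vs. FR, against 49.7% of all genes tested. The direction of the list is therefore not independent of how its genes got a name.

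With limma, 0 of the 38 other pathway genes were DE in any of the comparisons. In VIM vs. FR, 2 of them were lower in VIM at an unadjusted p under 0.05 and 0 were higher, against 1.66% and 2.12% of all 7351 genes tested. Without FR replicate 1, 2, 3 or 4 in turn 1 gene reached that p, and without VIM replicate 2 it was 4. DESeq2 called 3 of them lower (RB1, CDT1 and the mitotic kinase PLK1) and 1 higher (SKP1), against 4.52% and 2.35% of all genes. The median log2 fold change was -0.19 over the list and -0.12 over all genes. Over the 2569 genes with a symbol, from which the list was drawn, it was -0.27, and 3.27% were lower and 1.75% higher at that p. DESeq2 called 82 of these 2569 lower and 21 higher. In VMAT vs. FR, 2 were lower and 1 was higher, against 1.22% and 2.41% of all 8305 genes, with a median of -0.14 over the list and 0.01 over all genes. Of the genes with a symbol, 3.62% were lower and 0.895% higher, with a median of -0.31. The median of the list thus lay below that of all genes but above that of genes with a symbol. The share with a log2 fold change below 0 was 63.2% in the list and 59.6% in genes with a symbol, so by that measure the list lay lower. DESeq2 also called 2 of the list lower and 1 higher, against 2.1% and 2.17% of all genes. Of the 2569 genes with a symbol it called 38 lower and 18 higher. With edgeR 0 of the list were called, against 0.012% of all genes. In limma without FR replicate 2, 3 or 5 in turn, 1 list gene had an unadjusted p under 0.05. On normalized counts, every VMAT library lay below every FR library for 3 list genes (CDT1, DYRK1A and UHRF1), against 1.23% of all genes, and above for 1 (SKP1), against 1.96%. Of the 2569 genes with a symbol, 62 lay below in this way and 16 above. Scaled to 1000000 reads on genes, VMAT and FR overlapped for CDT1 and UHRF1, and remained apart for DYRK1A and SKP1. In VIM vs. VMAT, 0 of 38 reached an unadjusted p under 0.05 in limma, against 0.97% of genes higher and 2.01% lower in VIM, while DESeq2 called 1 of them (DYRK1A) higher and 0 lower, against 1.68% and 2.19% of all genes. Of the 2569 genes with a symbol, DESeq2 called 32 higher and 21 lower. edgeR called 0 of the list, against 0.0131% of all genes. Every VIM library lay above every VMAT library for 1 list gene (DYRK1A) and below for 0, against 1.72% and 2.78% of all genes. Of the 2569 genes with a symbol, 74 lay above and 51 below. This separation of DYRK1A rested on 1 read in VIM replicate 3 and 1 in VMAT replicate 3, and on the scale of 1000000 reads the groups overlapped. For this comparison the median was 0.16 over the list, -0.08 over all genes and 0.02 over those with a symbol, of which 2.3% were higher and 1.6% lower in VIM at that p.

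The partners and inhibitors of E2F varied widely between pools. E2F4, a factor that mostly represses, was the one E2F gene matched, and it had at most 10 reads in 2 VIM, 2 VMAT and 2 FR libraries. VIM had a mean normalized count of 295 ± 352 (SD, n = 4), FR had 191 ± 232 (SD, n = 5), and VMAT had 24.3 ± 30.1 (SD, n = 3), with differences inside the spread of the groups. RB1, the retinoblastoma pocket protein, had 4, 1, 2 and 5 reads in VIM replicates 1 to 4, 1, 290 and 223 in VMAT replicates 1 to 3, and 110, 594, 341, 725 and 4 in FR replicates 1 to 5. All VIM libraries were thus near the floor, and so were VMAT replicate 1 and FR replicate 5. VIM stood at -5.00 ± 2.14 (standard error) against FR on the log2 scale (limma unadjusted p = 0.0284, adjusted p = 0.902). The adjusted p was 0.281 in edgeR and 0.000434 in DESeq2 on the recovered reads.

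DYRK1A had at most 10 reads in all VMAT libraries (0, 7 and 1), whereas FR replicates 1 to 5 held 3, 274, 743, 49 and 320 and VIM replicates 1 to 4 held 631, 40, 1 and 99. On normalized counts every VMAT library was below every FR library, by -5.65 ± 2.48 (standard error) on the log2 scale (limma unadjusted p = 0.0291, adjusted p = 0.95). Between VIM and VMAT it was 4.92 ± 2.88 (limma adjusted p = 0.967), and the DESeq2 adjusted p was 0.00191 and 0.0141 in these comparisons. The DREAM subunit LIN37 was detected at 222 to 411 reads in VIM replicate 3 and FR replicates 3, 4 and 5 and at 382 in VMAT replicate 2, and at 0 or 1 or 2 reads elsewhere. The histone-binding subunit RBBP4 and the acetyltransferases EP300 and CREBBP were above 10 reads in all 12 libraries. Their log2 fold changes lay between -0.62 and 0.27 over the comparisons, all smaller than their standard errors.

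Among the genes for turnover and the targets, SKP1 and CDT1 had the smallest p-values. SKP1 encodes the adaptor of SCF ubiquitin ligases. It had 2 or 3 reads in every FR library, 16, 774 and 164 in VMAT replicates 1 to 3, and 4, 236, 3 and 292 in VIM replicates 1 to 4. VMAT exceeded FR by 5.13 ± 2.45 (standard error) on the log2 scale (limma unadjusted p = 0.0438, adjusted p = 0.95, DESeq2 adjusted p = 0.00102). CDT1, a licensing factor of replication origins and an E2F target, had 33, 612, 439, 841 and 573 reads in FR replicates 1 to 5. It had 13, 14, 0 and 4 reads in VIM replicates 1 to 4 and 4, 191 and 1 in VMAT replicates 1 to 3. On normalized counts every vitrified library was below every FR library, as for 0.639% of all genes in VIM vs. FR and for 1.23% in VMAT vs. FR. Of the 2569 genes with a symbol, this held for 24 and 62 in these comparisons. Scaled to 1000000 reads on genes, VMAT replicate 2 (15.7) was above FR replicate 1, whereas VIM (highest 6.59) remained below FR. Against FR, the log2 fold change of CDT1 was -5.49 ± 1.85 for VIM (limma adjusted p = 0.902, DESeq2 adjusted p = 0.00202). For VMAT it was -4.83 ± 1.88 (limma adjusted p = 0.95, DESeq2 adjusted p = 0.0149).

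The other 21 target genes reached no unadjusted p under 0.05 in limma in any comparison. They included the replication genes PCNA, MCM2 and MCM10 and the methylation genes DNMT1 and UHRF1, which stayed above 10 reads in all 12 libraries. Of the 38 other pathway genes, 17 had at most 10 reads in at least 1 library. Such genes numbered 13 in VMAT replicate 1, 1 in VMAT replicate 2, 5 in VMAT replicate 3, 6 to 9 in the VIM libraries and 2 to 9 in the FR libraries. In both VMAT replicate 1 and VMAT replicate 3, 5 of them were that low (E2F4, LIN37, DYRK1A, MCM6 and CDT1). Each of these was also that low in at least 1 other library, as were most genes low in both. Over the genes with a mean of at least 50, 1427 were low in both and 20 of these stayed above 10 reads elsewhere. TFDP2 and EAPP are among the 20, but the pattern was defined from their values.

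**Figure D4:**
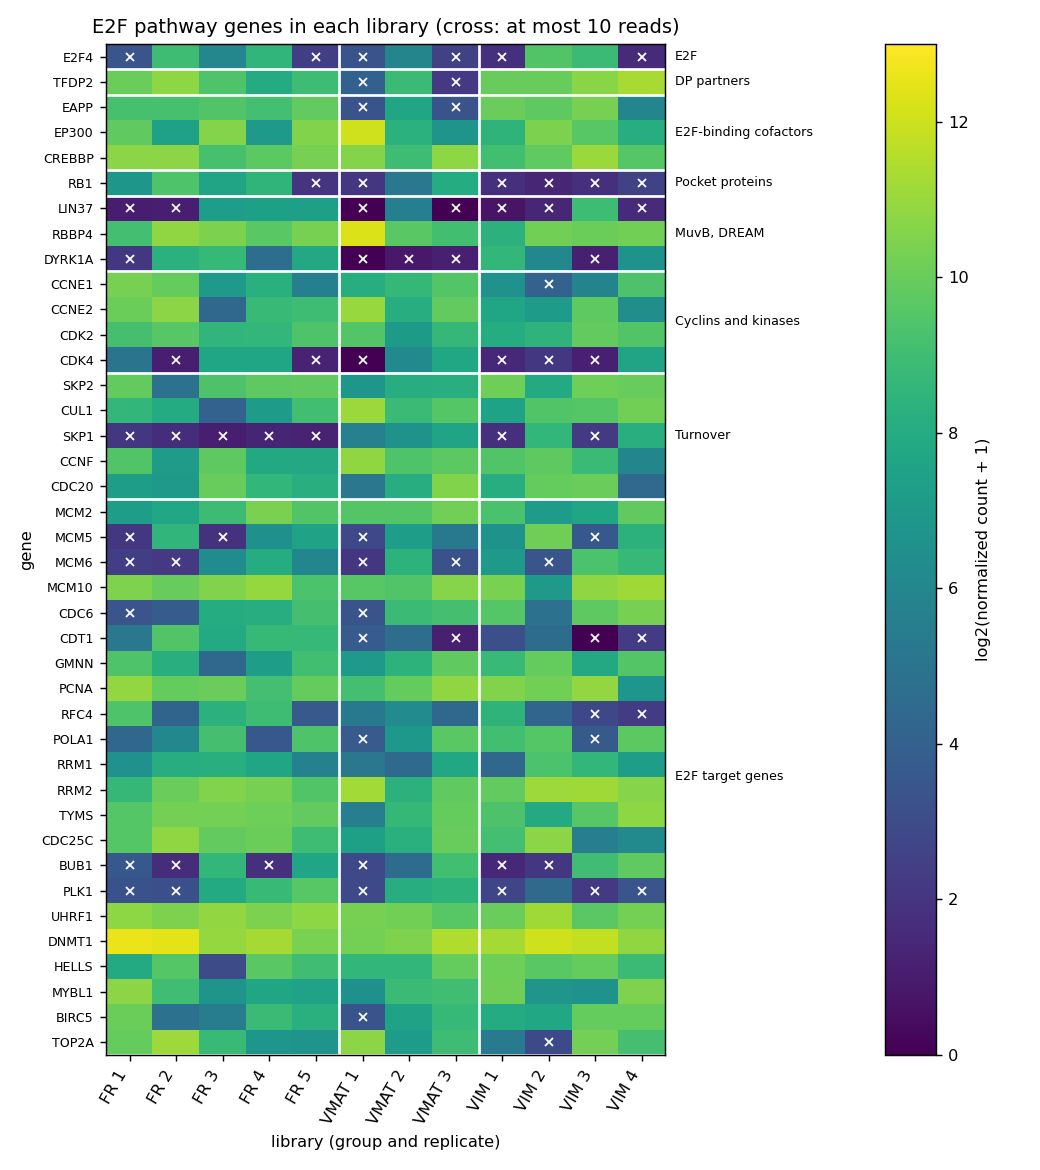
Level (colour, log2 of the normalized count plus 1) of the 40 matched E2F pathway genes (rows, by class) in the 12 libraries (columns), with a cross where a library held at most 10 reads. TFDP2 and EAPP carry crosses in VMAT replicates 1 and 3 alone, SKP1 carries them in all FR libraries among others, and RB1 in all VIM libraries among others.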

How the data were processed

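Pools of in vitro matured horse oocytes were sequenced in 3 groups with a 3′ kit, with 4 VIM, 3 VMAT and 5 FR libraries. From 5 pools in each group, the authors kept 4 VIM, 4 VMAT and 5 FR after checks of RNA amount and integrity. They trimmed the reads (Trim Galore), mapped them to EquCab3.0 (STAR), processed unique molecular identifiers (UMI-tools) and counted reads per gene (RSEM). A further VMAT sample was removed for low RNA integrity, the lowest concentration and few reads. The deposited values are a signal per gene: read counts that the authors had scaled with the size factors of DESeq2. All of them (100.0%, tolerance 0.001) were whole multiples of one step per library, so whole reads were recovered. Between 1636620 and 12166950 reads per library limit the precision of low values.

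Genes above 0 in at least 4 samples (VIM vs. FR) or 3 samples (other comparisons), the size of the smaller group, were tested with limma 3.58.1 (R 4.3.3, eBayes with trend, pseudocount 1) on the samples of both groups. The fits were also run on simulated counts with less spread and without drops to a few reads in single libraries. That run does not show how they perform on genes with such drops. edgeR 4.0.16 and DESeq2 1.42.0 ran on recovered reads as alternatives, beside pseudocounts of 0.5 and 10, other filters, scalings and models, a replicate block and the omission of each library. Over the 19 pairs of libraries of the same group, the lowest chi-square divided by its degrees of freedom was 166, far above sampling noise, so that no library was counted as a repeat.

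Both genes and all lists were chosen with earlier results of these data known. Named were TFDP2 and EAPP, the core classes of the list, list genes with an unadjusted p under 0.05, and the 5 genes most like each of the pair. Genes that share a pattern of low libraries were named after their values were seen. Symbols for 2569 identifiers came from supplementary tables held in part, whose columns of fold changes and p-values were not used. Positions were not used, since the annotation at hand is of another assembly (TB-T2T). In it TFDP2 overlaps 1 other protein-coding locus, and reads from both might not be told apart. Calculations used Python 3.11.15, numpy 2.4.6, pandas 2.3.3, scipy 1.17.1 and matplotlib 3.10.9.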

Additional observations from a re-analysis of the deposited data

Results flagged for a closer look

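For E2F pathway genes of the core classes or with an unadjusted p under 0.05, TFDP2 and EAPP left out because they were chosen on these values, each group of 4 or 5 libraries was searched on the log2 scale for a library whose gap to its nearest neighbour took up most of the range of the group (Dixon's test at 95%). Of 18 such groups, 2 held one, against 0.9 at that level if values were normal and groups independent. The groups share libraries and some genes fell to a few reads in single libraries, so the 0.9 is nominal only. LIN37 in VIM replicate 3 was at 495 normalized counts (others 0.614 to 1.96). RBBP4 in VIM replicate 1 was at 323 (others 1066 to 1218).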

How the results depend on the processing

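The number of DE genes was 0 in each comparison with limma and with each library left out (0 to 0). It was 3 in VIM vs. FR with no filter on low values and 3 with eBayes without trend. With edgeR on recovered reads it was 1 for VMAT vs. FR, 1 for VIM vs. VMAT, and with DESeq2 on recovered reads 505 genes were DE for VIM vs. FR, 354 for VMAT vs. FR, and 295 for VIM vs. VMAT. The cause was not tested.

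The log2 fold change of TFDP2 kept its sign under all alternatives in the 3 comparisons, and that of EAPP in the comparisons with VMAT. With edgeR it was -1.91 for TFDP2 and -2.76 for EAPP in VMAT vs. FR. For TFDP2 it was 2.71 in VIM vs. VMAT. DESeq2 gave -2.53 and -3.30 in VMAT vs. FR and 3.38 for TFDP2 in VIM vs. VMAT, and quantile normalization gave -3.07, -3.45 and 4.21. In VIM vs. FR, EAPP changed sign with edgeR (0.14), with DESeq2 (0.24) and without VIM replicate 4 (0.65). Leaving out 1 library gave ranges of -6.34 to -3.00 for TFDP2 and -6.01 to -3.87 for EAPP in VMAT vs. FR, 4.03 to 7.37 and 3.50 to 5.64 in VIM vs. VMAT, and 0.67 to 1.36 and -0.80 to 0.65 in VIM vs. FR. With a replicate block, TFDP2 was at 0.91 and EAPP at -0.24 in VIM vs. FR. The values were -5.07 and -4.51 for VMAT vs. FR and 5.18 and 5.24 for VIM vs. VMAT, and 0 genes were DE in each. The 3 other pathway genes with an unadjusted p under 0.05 in VMAT vs. FR became 0 with the block, and DESeq2 gave 5 such genes in VIM vs. VMAT against 0 in limma. The numbers gave no sign of pairs: over 10 pairs of libraries with the same number, r of their deviations was between -0.03 and 0.01. A shared session that is weak beside the spread between pools would not show in this r.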
